A study of Mus musculus with 9 samples.

Results

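The 43 genes described here drive DNA replication and cell division, and they were taken by symbol from 55536 genes measured in mouse ovaries by RNA-seq. Of these, 16 act in DNA replication, 3 regulate S phase, and 24 act in mitosis or are usual markers of dividing cells. None was chosen for its level in these samples, although earlier results of the same data were known when the list was drawn up. The study asks how granulosa cell tumours of mice differ in expression from normal ovaries. The controls were 3 ovaries of genotype FOXL2 WT/WT. The other 6 ovaries had 1 copy of Foxl2 with the C134W change (FOXL2 WT/C134W), and 3 of them were labelled hyperplasia and 3 granulosa cell tumor. Foxl2 is a transcription factor of granulosa cells, which line the follicle and feed the oocyte. All samples are labelled ovary, with no age, strain, promoter or driver line given in the labels, and libraries are numbered here in the order they were deposited.

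DNA is copied once per cell cycle: Cdc6 and Cdt1 load the ring of Mcm2 to Mcm7 at origins in G1, and Cdc45 and the GINS complex switch the ring on as a helicase in S phase. Later, Cdk1 with cyclins A and B starts mitosis, Aurora and Polo-like kinases build the spindle, and the anaphase-promoting complex ends it. In the ovary the granulosa cells of growing follicles are the best known dividing population, and luteal cells have largely left the cycle. Transcription of replication genes is known to depend on E2F factors in late G1 and S phase. That of mitotic genes depends on the DREAM and MuvB complexes with B-Myb and Foxm1, which act through CHR elements. The CCAAT box is a separate promoter element that was searched for as well.

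As examples, 3 mitotic genes (Kif11, Ccnb2 and Ttk) and 3 replication genes (Mcm5, Mcm6 and Mcm10) were taken. The stretches below show which of the elements named above lie just before their starts. Each is the 150 bases before the RefSeq start on build GRCm38.p6, written 5′ to 3′ on the gene's own strand, with matches to the 3 motifs searched in capitals. The motifs were TTTGAA (the CHR), CCAAT, and the E2F forms TTTCCCGC, TTTCGCGC, TTTGCCGC and TTTGGCGC, each on both strands, so ATTGG and TTCAAA are CCAAT and the CHR on the opposite strand.
Kif11: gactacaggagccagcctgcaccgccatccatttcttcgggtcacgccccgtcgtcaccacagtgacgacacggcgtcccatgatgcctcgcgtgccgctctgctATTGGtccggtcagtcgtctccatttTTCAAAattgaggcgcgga
Ccnb2: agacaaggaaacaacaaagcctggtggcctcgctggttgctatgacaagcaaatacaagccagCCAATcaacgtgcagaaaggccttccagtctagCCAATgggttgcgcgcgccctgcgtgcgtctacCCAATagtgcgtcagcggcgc
Ttk: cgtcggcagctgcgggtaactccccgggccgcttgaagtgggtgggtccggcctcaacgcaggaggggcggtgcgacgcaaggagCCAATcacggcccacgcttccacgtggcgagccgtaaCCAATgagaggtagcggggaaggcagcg
Mcm5: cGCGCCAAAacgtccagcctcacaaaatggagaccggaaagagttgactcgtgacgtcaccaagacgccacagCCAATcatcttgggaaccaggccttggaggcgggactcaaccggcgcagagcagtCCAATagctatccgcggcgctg
Mcm6: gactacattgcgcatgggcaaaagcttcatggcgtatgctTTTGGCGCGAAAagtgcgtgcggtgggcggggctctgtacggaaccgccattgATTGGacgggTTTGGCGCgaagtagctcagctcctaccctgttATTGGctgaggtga
Mcm10: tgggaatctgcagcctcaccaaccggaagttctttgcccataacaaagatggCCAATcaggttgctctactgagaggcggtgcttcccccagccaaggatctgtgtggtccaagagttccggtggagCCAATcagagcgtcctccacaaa

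Kif11 lies on the plus strand at chr19:37376232-37376381, Ccnb2 on the minus strand at chr9:70421555-70421704 and Ttk on the plus strand at chr9:83834539-83834688. Mcm5 lies on the plus strand at chr8:75109359-75109508, Mcm6 on the minus strand at chr1:128359706-128359855 and Mcm10 on the minus strand at chr2:5012792-5012941. Kif11 has the CHR 19 bases and CCAAT 45 bases before its start. Ccnb2 has 3 CCAAT boxes, at 87, 54 and 21 bases before the start. Mcm6 has 3 E2F matches, of which those at 110 and 106 bases overlap in TTTGGCGCGAAA. Mcm10 has CCAAT boxes and no E2F form in its window. The CHR matches of Ccnb2, 167 bases before and 5 bases past the start, and of Ttk, 8 bases past it, lie outside the printed stretches. In windows of 300 bases (250 before to 50 after the start), the CHR occurred in 14 of 19 mitotic genes with a window (73.7%) and in 2 of 13 replication genes (15.4%), against 20.2% of all 27025 genes with one. An E2F form occurred in 6 of 13 replication genes (46.2%) and 1 of 19 mitotic genes (5.26%), against 2.6% of all genes. CCAAT was common to both, with 16 of 19 mitotic genes (84.2%) and 10 of 13 replication genes (76.9%), against 41.1% of all genes. A match is a run of letters and not a bound site, and a gene counts once if any of its windows holds it. The table held windows for 35 of the 43 genes.

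The libraries held 11661820 (tumour 3) to 20890487 (wild-type 1) counts on genes. Every one of the 43 genes passed the low-count filter, with at least 24 counts in every library, and levels are in CPM (counts scaled to library size, with TMM factors) unless TPM is named. Foxl2 stood at 129 to 388 CPM in all 9 libraries, which does not show the allele, and Inha, another granulosa cell marker, at 499 to 3021 CPM. Amh, also a granulosa cell marker, stood at 211 to 222 CPM in wild type, 6.59 to 16.3 in hyperplasia and 0.0975 to 39.4 in tumours, without overlap with wild type. The 11 granulosa markers summed to 1936 to 4921 CPM in wild type, 1111 to 4218 in hyperplasia (lowest in library 2) and 4134 to 5042 in tumours. Inha alone gave 757 to 2214, 499 to 1633 and 2402 to 3021 CPM of these sums. Fshr had 0 counts in tumour library 2, against 81.8 and 80.7 CPM in the other tumours, and the 5 surface epithelium markers summed to 1.27 CPM there against 1652 and 585. The 18 oocyte markers summed to 318, 237 and 309 CPM in wild type, to 138, 33.2 and 18.7 in hyperplasia, and to 24 CPM or less in the tumours, where 7 markers had 0 counts throughout. Of these sums, Ooep alone gave 12.9 CPM in hyperplasia 3 and 20.6, 0 and 11.9 CPM in tumours 1, 2 and 3. The 7 luteal markers summed to 12917 to 24465 CPM in wild type, 7063 to 15132 in hyperplasia and 4026 to 4136 in tumours. The 7 macrophage markers summed to 619 to 799, 551 to 961 and 128 to 389 CPM in the same order. Lyz2 alone gave 395 to 661, 390 to 746 and 48.1 to 284 CPM of these sums. The 7 smooth muscle and stroma markers summed to 1888 to 3873 CPM in wild type, 4377 to 6670 in hyperplasia and 958 to 3208 in tumours, so hyperplasia lay wholly above wild type, and 7 of 7 had higher fitted levels there. The part of these differences in the results that follow was not tested.

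In tumours against wild-type ovaries, 40 of the 43 genes had lower fitted levels and 3 higher, where 49.1% of all 16213 genes tested were lower. The median log2 difference was −0.60, against 0.01 over all genes. None passed edgeR's quasi-likelihood test (0 of 43 at a Benjamini-Hochberg adjusted p under 0.05, smallest adjusted p 0.163), while 1.6% of all genes passed. The DESeq2 Wald test and limma-voom called 0 of 43 as well, where they called 10.8% and 1.67% of all genes. Before adjustment 5 genes had a p under 0.05, all lower (Gins1, Chek1, Ccnb1, Kif11 and Ttk), a share of the list near the 11.7% of all genes that were lower at that level. The tumour and wild-type values did not overlap for 7 genes, those 5 with Mcm10 and Ndc80, where 13.4% of all genes lay wholly lower in tumours. The medians were −0.30 for the 16 replication genes, −1.15 for the 3 S-phase regulators and −0.72 for the 24 mitotic genes, and Mcm2, Mcm7 and Tyms were the 3 with a value above 0. In whole ovary RNA, fewer cycling cells and less RNA per cycling cell cannot be told apart. P-values measure the spread between these samples, since the labels do not say that each came from a separate animal, and hyperplasia 3 and tumour 3 share a title stem.

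The 3 tumours were not alike for these genes. In CPM tumour 2 was the highest tumour for 42 of 43 genes, and it lay above all wild-type libraries for 14, within their range for 22 and below them for 7. Tumours 1 and 3 each lay below every wild-type library for 38 of 43. Tumour 2 had the lowest TMM factor of the libraries (0.797), and its place depended on the scale. In TPM it was the lowest tumour for Cdt1, Mcm4, Mcm6 and Mcm7, while it stayed the highest for others such as Cdk1. In TPM Top2a in tumour 2 lay below wild type, at 41.8 against 46.3, 65.8 and 57.3. Relative to the wild-type mean, the median gene stood at −1.26, 0.13 and −1.31 on the log2 scale in tumours 1, 2 and 3. Without tumour 2 the median difference from wild type was −1.28 and 28 genes reached an unadjusted p under 0.05. By edgeR 0 of 43 passed after adjustment in that fit, where 0.413% of all genes passed. The median was −0.37 without tumour 1 and −0.36 without tumour 3, and −0.34 in a fit with a term for the shared title stem. The unadjusted count was 0 without tumour 1, 1 without tumour 3, 3 without wild-type 1 or 2 and 2 without wild-type 3. Here and below, no share of all genes was worked out for counts of single libraries or for unadjusted counts with a library left out. Such counts therefore have no background to set them against.

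**Figure D1:**
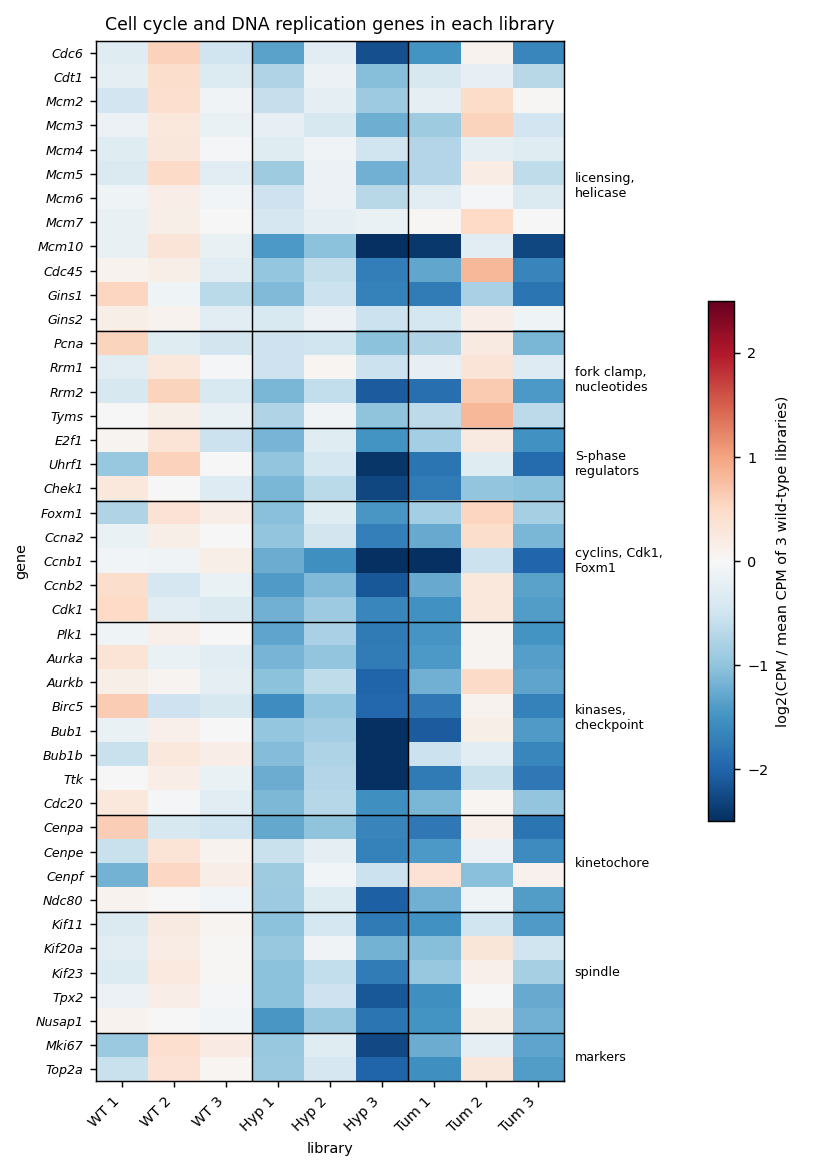
Level of each of the 43 genes (rows, ordered by role) in each of the 9 libraries (columns; WT, wild type; Hyp, hyperplasia; Tum, tumour), as log2 of CPM over the mean of the 3 wild-type libraries, with blue lower and red higher. Hyperplasia 3 has the lowest value of all 9 libraries for 36 genes, and tumour 2 resembles the wild-type columns more than tumours 1 and 3 do.

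In hyperplasia against wild type all 43 genes had lower fitted levels, where 50.3% of all genes did. Their median was −1.03 (all genes 0.00). None passed edgeR's test after adjustment (0 of 43, smallest adjusted p 0.999, DESeq2 and limma-voom also 0), and nor did any other gene (0.0% of 16213). Of all genes, DESeq2 called 0.117% here and limma-voom 0. Before adjustment 16 of the 43 had a p under 0.05, all lower, where 2.12% of all genes were lower at that level. All 3 hyperplasia libraries lay below all 3 wild-type libraries for 25 of the 43 genes, against 5.18% of all genes. These 25 comprised 18 of 24 mitotic genes, 6 of 16 replication genes and Chek1. That count is in CPM, and in TPM some of them overlapped, among them Mcm3, Mcm6, Chek1, Bub1b, Kif11 and Tpx2. More than 2-fold lower fitted levels were found for 22 of the 43, against 4.86% of all genes. The median was −0.58 for replication genes, −1.07 for the S-phase regulators and −1.10 for mitotic genes. Both mutant groups are set against the same 3 wild-type libraries, so their values stand side by side and are not independent.

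Within hyperplasia the libraries again differed, with a median gene at −1.02, −0.45 and −1.73 against the wild-type mean in libraries 1, 2 and 3. Library 2 was the highest of its group for 40 genes and library 3 the lowest for 41. The unadjusted count was 2 without hyperplasia 3, 7 without hyperplasia 1, 26 without hyperplasia 2, 8 without wild-type 1 and 9 without wild-type 2. All 43 genes stayed below 0 when any 1 of the 9 libraries was left out. The oocyte marker sum differed in order from these values, since it was highest in hyperplasia 1 while the cell cycle genes were highest in hyperplasia 2.

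With both mutant groups set against wild type, all 43 genes had lower fitted levels, where 50.9% of all genes did. Their median was −0.81 (all genes −0.01). By edgeR 0 of 43 passed after adjustment (smallest adjusted p 0.174, for Ccnb1), where 0.0123% of all genes passed. The DESeq2 Wald test called 1 gene, Ccnb1, at −1.56 ± 0.47 (SE, log2) and an adjusted p of 0.0326, where it called 3.65% of all genes. Of the 43, limma-voom called 0, where it called 1.22% of all genes. Before adjustment 17 genes had a p under 0.05, all lower, where 7.88% of all genes were lower at that level. All 6 mutant libraries lay below all 3 wild-type libraries in CPM for Mcm10, Chek1, Ccnb1, Ttk, Ndc80 and Kif11, which is 6 of 43 against 2.69% of all genes. In TPM hyperplasia 2 lay above wild-type 1 for Chek1 and Kif11. This comparison uses the same 9 libraries as those of each mutant group, so it is no separate evidence. The unadjusted count was 35 without tumour 2, 9 without hyperplasia 3, 10 without tumour 3, and 11 without tumour 1 or without wild-type 1 or 2.

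Between tumours and hyperplasia, 38 genes had higher fitted levels in tumours and 5 lower, where 54.0% of all genes were higher. Their median was 0.36 (all genes 0.05). None passed edgeR's test (0 of 43, smallest adjusted p 0.357), where 0.185% of all genes passed. DESeq2 and limma-voom called 0 of 43, where they called 5.03% and 0.0247% of all genes. Before adjustment 0 had a p under 0.05 by edgeR, where 4.71% of all genes were higher at that level. The 2 genes whose tumour values all lay above the hyperplasia values in CPM were Mcm2 and Mcm7, against 9.54% of all genes. Both overlapped in TPM. The direction of the median rested on tumour 2, without which it was −0.23, with 29 of 43 genes lower in tumours. It was also just below 0 on the deposited TPM values, at −0.02 for log2(TPM + 1), where the median of all genes stood at −0.23. Leaving out hyperplasia 2 gave 0.65, hyperplasia 3 gave 0.15, tumour 1 gave 0.59 and tumour 3 gave 0.56.

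**Figure D2:**
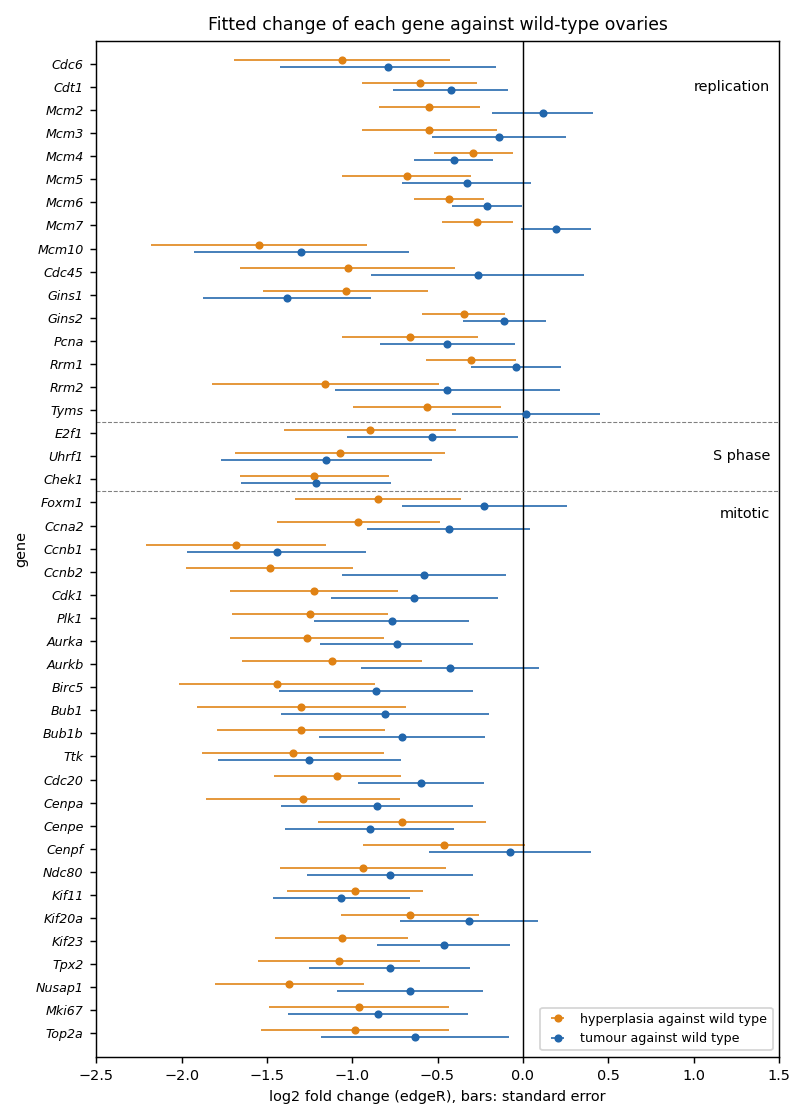
Fitted log2 fold change (points) with its standard error (bars) of each of the 43 genes in hyperplasia (orange) and tumours (blue) against wild type, from edgeR. All orange points lie left of 0, and the blue points of Mcm2, Mcm7 and Tyms lie right of it.

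Among the 12 licensing and helicase genes, the 6 subunits of the Mcm2 to Mcm7 ring, which unwinds DNA at the fork, had lower fitted levels in hyperplasia than in wild type (6 of 6), and 4 of 6 did in tumours. Their median log2 difference was −0.49 in hyperplasia and −0.18 in tumours, and no subunit reached an unadjusted p under 0.05 in any comparison. Mcm7 (chromosome 5, 138164583 to 138172422, minus strand, GRCm38) stood at 64.7, 81.7 and 73.8 CPM in wild type, 54.9, 62.6 and 65.7 in hyperplasia, and 75.1, 104 and 72.8 in tumours. The hyperplasia and tumour values did not overlap in CPM, and the difference between them was 0.46 ± 0.21 (SE, log2, edgeR adjusted p 0.357). In TPM they overlapped, at 50.8, 56.0 and 60.6 in hyperplasia and 61.5, 46.7 and 72.4 in tumours. Mcm2 stood at 34.1, 63.2 and 44.3 CPM in wild type, 31.7, 40.1 and 25.1 in hyperplasia, and 40.4, 64.7 and 48.5 in tumours. All 3 tumours exceeded all 3 hyperplasia libraries in CPM, by 0.66 ± 0.30 (edgeR adjusted p 0.36), and overlapped wild type. In TPM tumours and hyperplasia overlapped for Mcm2 too. Mcm4 went the other way between the lesions, at 45.5, 52.8 and 39.6 CPM in hyperplasia and 33.8, 47.6 and 45.9 in tumours, with overlapping values. Mcm6 was lower in all hyperplasia libraries (60.4, 77.7 and 53.7 CPM) than in wild type (79.8, 96.9 and 82.2). Mcm3 did not overlap either, at 45.4, 39.8 and 22.6 CPM in hyperplasia against 47.5, 63.1 and 47.0. Mcm5 stood at 34.3, 61.1 and 35.9 CPM in wild type and 23.5, 39.4 and 19 in hyperplasia, with overlap.

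Per length, Mcm7 was the most abundant subunit in 8 of 9 libraries, and Mcm3 in wild-type 1. Mean TPM over the 9 libraries was 58.6 for Mcm7, 41.1 for Mcm6, 27.8 for Mcm3, 21.6 for Mcm4, 21.4 for Mcm5 and 20.6 for Mcm2. Mcm3, Mcm4, Mcm5 and Mcm2 changed places from library to library and cannot be ranked. The ratio of the highest to the lowest subunit ran from 2.24 to 3.48 in wild type, 2.59 to 4.89 in hyperplasia and 3.37 to 4.10 in tumours, so the groups overlapped in how uneven the 6 transcripts were. Mcm7 overlaps Cops6 and Ap4m1 on the opposite strand at its ends, and its expected counts were not whole in any library, so some of its reads were shared with other loci by RSEM.

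**Figure D3:**
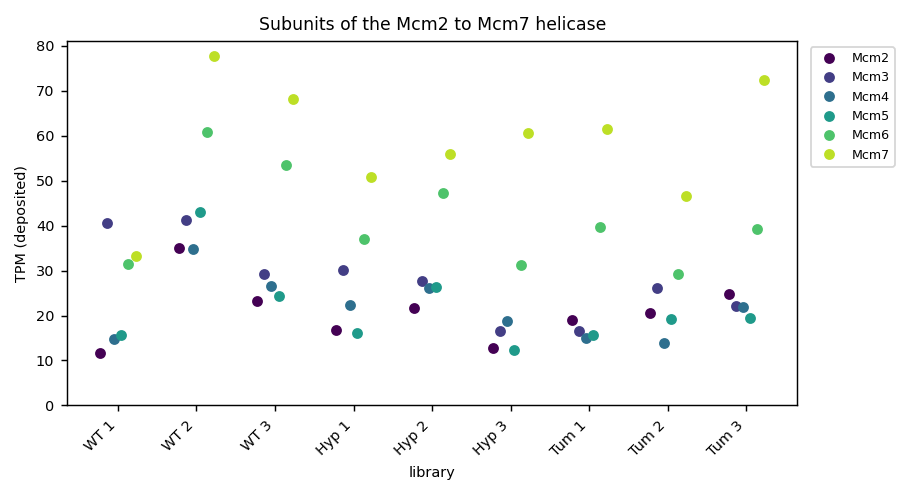
Deposited TPM of Mcm2 to Mcm7 (coloured points) in each of the 9 libraries. Mcm7 is the highest subunit in all libraries except wild-type 1, where Mcm3 is, and Mcm6 is the second in 8 of 9 libraries.

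Mcm10, which helps the loaded helicase start, was the lowest of the licensing genes against wild type in hyperplasia. It stood at 8.95, 12.7 and 8.91 CPM in wild type, 3.75, 5.0 and 1.73 in hyperplasia, and 1.92, 8.48 and 2.10 in tumours. All mutant libraries lay below all wild-type ones, with tumour 2 only just below, and the differences were −1.55 ± 0.63 in hyperplasia (edgeR adjusted p 0.999) and −1.30 ± 0.63 in tumours (0.291). Gins1, a GINS subunit (chromosome 2, 150905400 to 150931280, plus strand), stood at 10.3, 6.60 and 4.48 CPM in wild type, 3.32, 4.93 and 2.20 in hyperplasia, and 2.12, 4.10 and 2.02 in tumours. All tumours lay below wild type, −1.38 ± 0.49 (edgeR adjusted p 0.163), the smallest p of the 43 in that comparison, while hyperplasia 2 overlapped wild type. Its partner Gins2 stood at 25.1, 23.9 and 18.7 CPM in wild type and 16.7, 25.3 and 20.8 in tumours. The TPM ratio of Gins1 to Gins2 was 0.79, 0.64 and 0.46 in wild type, 0.59, 0.50 and 0.36 in hyperplasia, and 0.19, 0.22 and 0.35 in tumours, so that every tumour lay below every wild-type library. They also lay below hyperplasia in TPM, tumour 3 by little, but overlapped it in CPM, where the ratio was 0.16 in tumour 2 and 0.14 in hyperplasia 3. This ratio was looked at after its values were seen and carries no test, and Gins2 overlaps Gm20388 and Gse1 on the opposite strand, which leaves its count uncertain.

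Cdc45, the helicase partner, stood far apart between the tumours, at 4.04, 17.8 and 3.19 CPM. Tumour 2 lay above and the other tumours below the wild-type values of 10.6, 11.1 and 8.28. Cdc6, a loading ATPase and the replication gene with the lowest TPM (mean 2.97), stood at 6.91, 12.7 and 6.04 CPM in wild type, 3.37, 7.10 and 1.87 in hyperplasia, and 3.05, 9.07 and 2.77 in tumours. Cdt1, its partner in loading, stood at 13.7, 21.7 and 12.7 CPM in wild type and 12.1, 13.8 and 9.91 in tumours (−0.42 ± 0.34, edgeR adjusted p 0.53). For Cdc6 and Cdt1 the wild-type range overlapped both mutant groups. Gm20388 spans Cdt1 on the same strand, and the expected counts of Cdt1 were whole in all 9 libraries.

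The 4 fork clamp and nucleotide genes were near the ring subunits, with a median of −0.61 in hyperplasia and −0.24 in tumours. Pcna, the sliding clamp that holds polymerases on DNA, was the most abundant of all 43 genes, with a mean of 106 TPM. It stood at 179, 98.2 and 87.9 CPM in wild type, 84.7, 86.4 and 59.5 in hyperplasia, and 72.0, 141 and 55.4 in tumours. Hyperplasia lay below wild type by a narrow margin (−0.66 ± 0.40, edgeR adjusted p 0.999), and the tumours overlapped it (−0.44 ± 0.40, edgeR adjusted p 0.579). Over the 9 libraries Pcna-ps2, a processed copy, took 2175 counts against 13995 for Pcna, so the division of reads between them is uncertain. Rrm1 and Rrm2, the large and small subunits of ribonucleotide reductase, parted from each other. Rrm1 stood at 73.2, 107 and 88.2 CPM in wild type and 78.1, 112 and 71.3 in tumours, and Rrm2 at 23.3, 45.4 and 23.7 and at 8.34, 48.5 and 11.3. The TPM ratio of Rrm2 to Rrm1 was 0.15, 0.58 and 0.30 in tumours and 0.28 to 0.61 in wild type, and so differed more among tumours than between the groups. Tyms, which makes thymidylate, stood at 36.5 CPM in tumour 2, above all wild-type libraries (18.3 to 22.8), and at 13.0 and 12.9 in the other tumours.

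Of the S-phase regulators, Chek1, the kinase that answers stalled forks (chromosome 9, 36708482 to 36727065, minus strand), stood at 14.8, 12.2 and 9.89 CPM in wild type. It stood at 5.57, 7.75 and 2.54 CPM in hyperplasia and 3.64, 6.24 and 6.05 in tumours. All mutant libraries lay below all wild-type ones in CPM, tumour 2 included, but in TPM hyperplasia 2 (7.19) lay above wild-type 1 (6.82). The difference was −1.22 ± 0.44 in hyperplasia (edgeR adjusted p 0.999) and −1.21 ± 0.44 in tumours (0.171). Uhrf1, which brings the maintenance methyltransferase to new DNA, had the highest mean TPM of the 3, at 11.6. It stood at 19.5, 56.3 and 37.4 CPM in wild type, 19.1, 27.8 and 7.05 in hyperplasia, and 10.7, 30.5 and 9.91 in tumours, with overlap in both cases. E2f1, the transcription factor of S-phase entry, had the lowest mean TPM of the 3 (5.47), at 13.5, 16.4 and 8.97 CPM in wild type and 7.15, 15.2 and 4.54 in tumours.

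Among the mitotic cyclins, Cdk1 and Foxm1 (5 genes), the median was −1.22 in hyperplasia and −0.58 in tumours, and 4 of the 5 did not overlap between hyperplasia and wild type. Ccnb1, cyclin B1 (chromosome 13, 100778650 to 100786570, minus strand), stood at 31.1, 30.6 and 36.2 CPM in wild type, 13.9, 11.3 and 5.32 in hyperplasia, and 5.56, 22.3 and 8.23 in tumours. Every mutant library lay below every wild-type one, and its fitted difference was the lowest of the 43 genes in both mutant groups, −1.68 ± 0.53 in hyperplasia (edgeR adjusted p 0.999) and −1.44 ± 0.53 in tumours (0.172). Ccnb2, cyclin B2, stood at 32.6, 18 and 21.6 CPM in wild type, 9.05, 11.2 and 5.56 in hyperplasia, and 10.1, 28.8 and 9.49 in tumours. Hyperplasia lay below wild type (−1.48 ± 0.49), and tumour 2 lay inside the wild-type range while the other tumours lay below it (−0.58 ± 0.48, edgeR adjusted p 0.546). In TPM every tumour lay below wild type. The TPM ratio of Ccnb1 to Ccnb2 was 0.58, 1.08 and 1.24 in wild type, 1.11, 0.69 and 0.57 in hyperplasia, and 0.47, 0.56 and 0.62 in tumours, so the groups overlapped. Cdk1, the kinase that these cyclins activate, had the highest mean TPM of the mitotic genes, 46.9. It stood at 55.3, 32.1 and 30.4 CPM in wild type, 17.0, 20.9 and 12.6 in hyperplasia, and 13.7, 47.3 and 14.95 in tumours. Foxm1, a transcription factor of mitotic genes, stood at 11.0, 23.7 and 20.5 CPM in wild type, overlapping hyperplasia (8.94, 15 and 6.76) and tumours (10.3, 26.6 and 10.4). Over the 9 libraries the pseudogene Ccnb2-ps took 562 counts against 2335 for Ccnb2, and Ccnb1-ps took 44 against 2711 for Ccnb1.

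In CPM all 8 mitotic kinase and checkpoint genes (Plk1, Aurka, Aurkb, Birc5, Bub1, Bub1b, Ttk and Cdc20) lay wholly below wild type in hyperplasia, with fitted differences of −1.44 (Birc5) to −1.09 (Cdc20). In tumours their range was −1.25 to −0.43, and Ttk alone did not overlap wild type. Ttk, the kinase that signals unattached chromosomes, stood at 10.1, 11.4 and 9.02 CPM in wild type, 4.28, 6.16 and 1.58 in hyperplasia, and 2.98, 6.92 and 2.94 in tumours. With a mean of 3.45 TPM it was the least abundant mitotic gene, and its difference in tumours was −1.25 ± 0.54 (edgeR adjusted p 0.234). Birc5, the survivin subunit of the chromosomal passenger complex, stood at 30.2, 13.7 and 14.7 CPM in wild type, 6.64, 10 and 4.98 in hyperplasia, and 5.63, 20.7 and 6.05 in tumours. Aurkb, the kinase of that complex, stood at 24.2 CPM in tumour 2, above the wild-type values of 19.1, 18.1 and 14.7, and at 7.48 and 6.97 in the other tumours. Plk1, Aurka, Bub1 and Cdc20 shared this split in CPM, with tumour 2 within or above the wild-type range and the other tumours below it. In TPM tumour 2 lay below all wild-type libraries for Plk1, Aurka and Cdc20. Bub1b did not, at 27.1 CPM in tumour 1, 32.3 in tumour 2 and 12.6 in tumour 3 against 26.7, 46.9 and 44.0 in wild type.

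Among the 4 kinetochore and centromere genes, Cenpf differed from the rest in the order of its libraries. Its fitted levels were lower than wild type, like those of the rest. The differences were −0.07 ± 0.47 in tumours (edgeR adjusted p 0.953) and −0.46 ± 0.47 in hyperplasia (0.999). Cenpf, a large kinetochore protein, stood at 20.6, 66.9 and 52.5 CPM in wild type and at 60.0, 22.6 and 50.1 in tumours. In CPM it was the single gene for which tumour 2 was the lowest tumour. Its wild-type 1 value was less than that of any hyperplasia library (25.2, 44.6 and 32.0). Cenpe, a motor of the kinetochore, stood at 15.5, 28.9 and 24.1 CPM in wild type and 8.41, 20.8 and 7.64 in tumours (−0.90 ± 0.50, edgeR adjusted p 0.353), with overlap through tumour 2. Ndc80, which binds microtubule ends, stood at 11.4, 10.7 and 10.2 CPM in wild type, 5.73, 8.55 and 2.64 in hyperplasia, and 4.70, 10.04 and 4.12 in tumours. The mutant values of Ndc80 all lay below wild type, tumour 2 by the narrowest margin. Cenpa, the histone of centromeres, stood at 8.46, 10.2 and 6.47 CPM in hyperplasia, below wild type (31.5, 15.4 and 14.4).

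The 5 spindle genes had a median of −1.06 in hyperplasia and −0.66 in tumours. Kif11, the motor that pushes spindle poles apart (chromosome 19, 37376403 to 37421859, plus strand), stood at 23.3, 34.6 and 31.3 CPM in wild type, 14.7, 21.8 and 8.67 in hyperplasia, and 10.5, 21.2 and 11.1 in tumours. No mutant library reached the wild-type range in CPM, but in TPM hyperplasia 2 (7.89) lay above wild-type 1 (5.49). The difference was −0.98 ± 0.40 in hyperplasia (edgeR adjusted p 0.999) and −1.06 ± 0.40 in tumours (0.184). Nusap1, which bundles spindle microtubules, stood at 27.9, 26.1 and 25.1 CPM in wild type, 9.64, 13.6 and 7.43 in hyperplasia, and 9.33, 29.4 and 11.4 in tumours. Its wild-type values lay close together in CPM, with tumour 2 above all of them, though tumour 2 lay below all of them in TPM. Its difference was −1.37 ± 0.44 in hyperplasia and −0.66 ± 0.43 in tumours (edgeR adjusted p 0.435). In CPM Kif23, a motor of the central spindle, and Tpx2, a spindle assembly factor, also lay wholly below wild type in hyperplasia, and Kif20a overlapped it.

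In hyperplasia Mki67 and Top2a, usual markers of dividing cells, overlapped wild type in CPM, unlike the 8 mitotic kinase and checkpoint genes. Pcna and Ccnb1, also used as such markers, did not overlap it there. In tumours Mki67 and Top2a overlapped wild type too, as did all of those 8 genes but Ttk. Mki67, the Ki-67 antigen, stood at 53.8, 137 and 118 CPM in wild type, 53.7, 83.3 and 21.6 in hyperplasia, and 43.6, 86.4 and 41.5 in tumours. Both mutant groups overlapped wild type through wild-type 1, and the differences were −0.96 ± 0.53 (edgeR adjusted p 0.999) and −0.85 ± 0.53 (0.413). Top2a, topoisomerase II alpha, stood at 78.0, 149 and 120 CPM in wild type, 60.7, 85.9 and 28.7 in hyperplasia, and 39.9, 140 and 43.6 in tumours. Hyperplasia 2 and tumour 2 lay within the wild-type range in CPM but below it in TPM. The differences were −0.98 ± 0.55 and −0.63 ± 0.55 (edgeR adjusted p 0.999 and 0.569).

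Relative to wild type, replication genes stood higher than mitotic genes in each mutant library. The replication median minus the mitotic median, on the log2 scale against the wild-type mean, was 0.37, 0.44 and 0.75 in hyperplasia and 0.71, 0.13 and 0.74 in tumours. In the wild-type libraries themselves it was −0.05, 0.12 and −0.22, so every mutant library lay above the wild-type range, tumour 2 by the least (0.127 against 0.115). In the fits the replication genes exceeded the mitotic ones by 0.52 in hyperplasia and 0.43 in tumours. The difference in tumours was 0.70 without tumour 2, and over the other settings tried it ran from 0.32 to 0.70 in tumours and 0.45 to 0.71 in hyperplasia. Between tumours and hyperplasia it was −0.22 with all libraries and 0.13 without tumour 2. No p is given for these medians, since genes of a list are not independent.

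**Figure D4:**
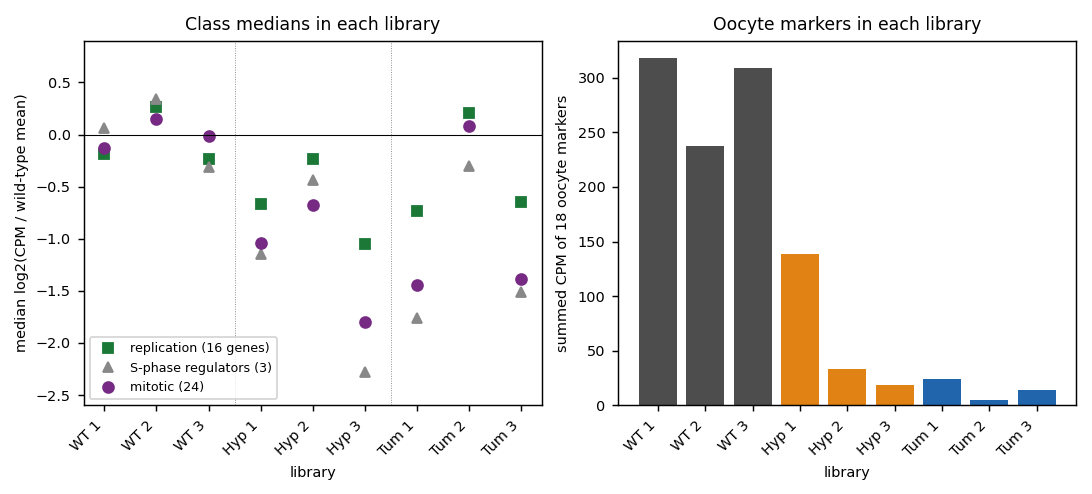
Left, median log2 of CPM over the wild-type mean for replication (squares), S-phase (triangles) and mitotic genes (circles) in each of the 9 libraries. Right, summed CPM of 18 oocyte markers (bars) in the same libraries: mutant squares lie above mutant circles, and the oocyte sum is lowest in tumour 2, whose class medians are the highest of the mutant libraries. The order of the tumour sums rests on 1 marker, Ooep, at 20.6, 0 and 11.9 CPM in tumours 1, 2 and 3.

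Gene length moved with the level in wild-type 1. Across the 43 genes, its log2 ratio to the mean of the other wild-type libraries had a Spearman rho of −0.70 with RSEM gene length, and −0.60 across all 16213 genes. The 22 shorter genes stood at a median of 0.13 and the 21 longer ones at −0.43. In tumour 2 the same measure against the other tumours gave −0.33 across the 43 genes and −0.31 across all genes, and its longer and shorter genes both stood higher, at 1.23 and 1.49. Such trends were not limited to these libraries. Across all genes rho was 0.46 in wild-type 2, 0.50 in wild-type 3 and 0.36 in tumour 3, each against the rest of its group. In the remaining libraries it lay between −0.16 and 0.23. These are descriptions over genes that share libraries, and their part in the group differences was not tested. With wild-type 1 and tumour 2 both left out, the fitted levels of all 43 genes lay below wild type in tumours (median −1.22) and in hyperplasia (median −0.99). By edgeR 0 of 43 passed in either, where 0.0484% and 0.0121% of all genes passed.

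**Figure D5:**
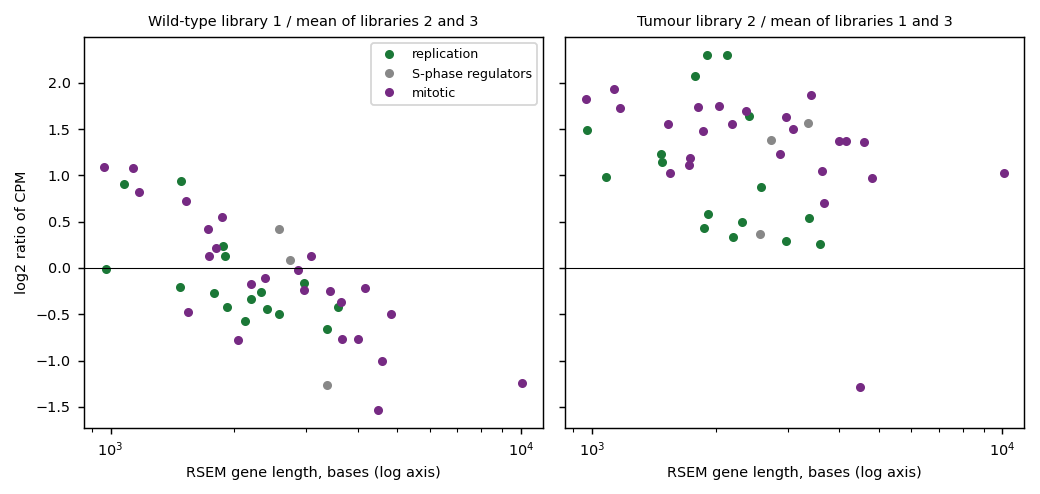
Log2 ratio of CPM against RSEM gene length in bases (log axis) for the 43 genes, coloured by class, for wild-type library 1 over the mean of wild-type 2 and 3 (left) and tumour library 2 over the mean of tumours 1 and 3 (right). In wild-type 1 the longer genes lie mostly below 0 (18 of 21) and the shorter ones on both sides (12 above and 10 below), while in tumour 2 all genes but Cenpf lie above 0.

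A further 125 genes of the same pathways, all of which passed the filter, gave similar counts. Fitted levels below wild type were found for 107 in tumours (median −0.48; 49.1% of all genes), 119 in hyperplasia (median −0.74; 50.3%) and 114 with both mutant groups (50.9%). By edgeR 0 of 125 passed in any comparison. Before adjustment 21 were lower and 1 higher in tumours at a p under 0.05, where 11.7% of all genes were lower. In hyperplasia 31 were lower at that level (2.12% of all genes), with both mutant groups 39 were lower (7.88%), and between tumours and hyperplasia 3 were higher (4.71%) and 1 lower. The DESeq2 Wald test called 11 of 125 in tumours, where it called 10.8% of all genes, and 9 with both mutant groups, where it called 3.65%. In hyperplasia against wild type and tumours against hyperplasia it called 0 (0.117% and 5.03% of all genes), and limma-voom called 0 in each comparison. The smallest edgeR adjusted p in tumours was that of Pole2, the second subunit of polymerase epsilon, which stood at 7.76, 7.60 and 5.35 CPM in wild type and 2.32, 2.24 and 2.10 in tumours (−1.63 ± 0.42, edgeR adjusted p 0.0791). Its tumour values lay close together, tumour 2 included, and below all wild-type values. Aspm, a spindle pole protein, stood at 22.2, 41.3 and 32.9 CPM in wild type, 12.7, 17.5 and 9.11 in hyperplasia, and 12.2, 13.0 and 17.1 in tumours (−1.19 ± 0.33 in tumours, edgeR adjusted p 0.0943). For Aspm, too, no mutant library reached the wild-type range, and tumour 2 stood with the other tumours. Gmnn, the inhibitor of Cdt1, stood at 22.7, 14.6 and 11.3 CPM in wild type and 5.10, 9.46 and 5.04 in tumours, also without overlap. Blm, a helicase of stalled forks, did not overlap wild type in either mutant group (9.70, 14.5 and 13.2 CPM in wild type, at most 9.06 in hyperplasia and 6.44 in tumours). Cdc25a, a phosphatase that activates cyclin-dependent kinases, was one of the few with higher tumour values, at 29.4, 41.3 and 35.3 CPM against 20.1, 26.8 and 28.3 in wild type and 24.5, 20.6 and 24.8 in hyperplasia. It did not overlap either group, and the difference from wild type was 0.50 ± 0.22 (edgeR adjusted p 0.258).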

How the data were processed

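RNA-seq of 9 mouse ovary samples was analysed, 3 wild type, 3 hyperplasia and 3 granulosa cell tumour, grouped by disease state in the labels. Per the labels' protocols, RNA came from a Trizol extraction and a TruSeq stranded mRNA kit; per the submitters' processing notes, the tools were RSEM 1.3.1, STAR 2.7.1a, Picard 2.8.1 and FastQC with build GRCm38, and the counting strand is not stated there. The authors deposited RSEM expected counts per gene, unnormalised, of which 25.6% of values above 0 are not whole (tolerance 0.001). The deposited TPM values, scaled by the authors for length and depth, served for levels between genes and as an alternative, and the FPKM values they deposited entered no test.

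Identifiers were matched to GENCODE M21 symbols (55536 of 55536). Expected counts were rounded and fitted in edgeR 4.0.16 (R 4.3.3): TMM, filterByExpr (count minimum 10, total 15; 16213 genes), 1 quasi-likelihood fit of 3 groups, Benjamini-Hochberg adjustment over all genes, threshold 0.05. Alternatives were DESeq2 1.42.0 size factors and Wald test, limma 3.58.1 voom, no filter, limma on log2(TPM + 1) and log2(TPM + 0.1), only the groups compared, a title-stem term, and leaving out each library; leaving out wild-type 1 with tumour 2 was added after seeing the data. No pair of libraries agreed within sampling noise (smallest chi-square per degree of freedom 25.0). The script was tested on simulated data. The genes and lists were chosen with earlier results of these data known. Named genes are those with the smallest p per class and comparison, the highest and lowest mean TPM per class, Mcm2 to Mcm7, and Mki67, Top2a, Pcna and Ccnb1, and for the further pathway genes the 2 with the smallest p per class, of which 1 is not reported here; the other genes given with values were named after their values were seen. Promoter windows are RefSeq's (GRCm38.p6).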

Additional observations from a re-analysis of the deposited data

How the results depend on the processing

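The count called was 0 of 43 in all 17 other settings for tumours against wild type, hyperplasia against wild type and tumours against hyperplasia. The share of all genes called there ran from 0% to 10.8%, 0% to 0.117% and 0% to 5.03%, in that order. With both mutant groups against wild type the count was 0 in all but the DESeq2 Wald test, which called 1. The share of all genes ran from 0% to 3.65% there. A count of 0 of 43 says little in settings that called few of all genes. The median stayed below 0 in all 17 other settings for tumours against wild type (−1.28 to −0.34) and for hyperplasia against wild type (−1.35 to −0.70). It did so in all 16 for both mutant groups (−1.14 to −0.56). Leaving out 1 library at a time gave medians of −1.28 to −0.36 in tumours against wild type, with −1.28 without tumour 2 and −1.22 without wild-type 1 and tumour 2, and replication minus mitotic medians of 0.35 to 0.70. In tumours against hyperplasia the median turned to −0.0226 on log2(TPM + 1) and −0.00843 on log2(TPM + 0.1). The median of all genes stood at −0.226 and −0.292 there, and the members' medians relative to it were 0.204 and 0.284. Leaving out 1 library at a time gave a members' median of −0.23 to 0.65 in this comparison. Without wild-type 1 and tumour 2 it was −0.25. There, replication minus mitotic ran from −0.25 to 0.13 when 1 library was left out, and was 0.13 without wild-type 1 and tumour 2. The cause of these changes was not tested. On log2(TPM + 1) the median of all genes shifted to −0.12 in tumours and 0.13 in hyperplasia against wild type, and the members' medians relative to it were −0.69 and −0.94. In tumours against wild type the sign of Tyms turned in 8 of the 17 settings, of Rrm1 and Cenpf in 4 each, of Mcm3 in 3, of Mcm2, Cdc45 and Foxm1 in 2 each and of Gins2 in 1, and those of Tyms, Mcm2 and Mcm7 turned without wild-type 1 and tumour 2 together. With both mutant groups Mcm7 turned in 6 of 16, and Mcm2 and Cenpf in 1 each. No paired analysis was possible because the labels give the groups no shared replicate numbers; hyperplasia 3 and tumour 3 share a title stem, and a term for it gave medians of −0.34 in tumours and −0.77 in hyperplasia against wild type. The median standard error over these genes was 0.48 on the log2 scale.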
